A study of Mus musculus with 21 samples.

Results

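Expression of the tumor suppressor p53 (Trp53) and 7 of its classical target genes was followed in brain myeloid cells after traumatic brain injury. The 8 genes (Trp53, Cdkn1a, Mdm2, Ccng1, Phlda3, Zmat3, Gdf15 and Bbc3) were picked by symbol for their known place in the p53 pathway. They are 8 of the 45706 genes in the deposited count table. The rule itself uses no measured value, but the genes were chosen with earlier results of these data known. All 8 had enough counts to be tested. RNA was sequenced from 21 libraries in 7 groups of 3: microglia of sham-operated WT mice, microglia taken 1 d or 7 d after a controlled cortical impact (CCI) from WT or Fgg γ390–396A mice, and cells of the infiltrating myeloid gate, sorted 1 d after CCI from either genotype. Every animal was a C57BL/6 male, 17 to 24 weeks old, and each library held the sorted cells of 2 brains pooled at random, taken from tissue around the lesion. Sham animals were WT and had the craniotomy without the impact, so injured Fgg γ390–396A (Fgg) groups differ from the sham group in genotype as well as in injury, and no sham Fgg group was analysed here. The Fgg γ390–396A knock-in makes fibrinogen that still clots but lacks the motif through which fibrin binds the integrin CD11b/CD18 on myeloid cells, in every cell that makes fibrinogen. Microglia were the CD45low CD11b+ cells and infiltrating myeloid cells the CD45hi CD11b+ cells of the sort, a gate that can hold monocytes, macrophages and neutrophils together, although the labels call these libraries macrophages.

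p53 is a transcription factor that is held at a low level by the ubiquitin ligase Mdm2, itself a p53 target, and that is stabilized as a protein when DNA is damaged or the cell is otherwise stressed. It binds a response element made of a pair of half-sites and switches on genes that stop the cell cycle, repair DNA, limit growth or start apoptosis. Cdkn1a encodes p21, an inhibitor of cyclin-dependent kinases and the best known p53 target, which other transcription factors can also induce without p53. The mRNA of Trp53 itself is not a measure of p53 activity, since control of the protein is mainly through its breakdown.

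Where the p53 response element lies in the members' promoters was read from RefSeq promoter sequences (GRCm38.p6, 250 bases before to 50 bases after each start), which hold 11 promoters for 7 of the 8 genes (all but Zmat3). The search took 2 copies of the p53 half-site consensus, up to 13 bases apart, on both strands, with at most 1 mismatch outside the core C and G. Cdkn1a and Ccng1 hold a match, so 2 of the 7 genes do, beside 194 of all 27025 genes with a promoter (0.718%) and 206 of all 32851 promoters (0.627%). Both windows are shown, with half-sites in capitals, because these are the only member promoters with a match and because Cdkn1a and Ccng1 were both called after injury. The Cdkn1a window is chr17:29090881-29090972 on the plus strand and the Ccng1 window is chr11:40755437-40755506 on the minus strand.
Cdkn1a: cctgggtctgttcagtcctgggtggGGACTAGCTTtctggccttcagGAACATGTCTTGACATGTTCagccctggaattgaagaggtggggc
Ccng1: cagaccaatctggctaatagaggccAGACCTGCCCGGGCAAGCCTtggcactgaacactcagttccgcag
The Cdkn1a window has 3 half-sites, which make 2 overlapping matches: one of half-sites 12 bases apart with 0 mismatches, whose first base is 73 bases before the upstream Cdkn1a start, and one of adjacent half-sites with 1 mismatch, whose first base is 51 bases before it. Cdkn1a has a second, downstream start at position 29093769, and the last of the 3 half-sites ends 2822 bases before it; the 300 bases around that start hold no match. The Ccng1 match has adjacent half-sites, 1 mismatch, and its first base 195 bases before the start. A match is a description of the sequence, and response elements elsewhere in these genes, such as in introns, lie outside the windows searched.

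In GRCm38 with GENCODE M21 annotation, all 8 genes are protein-coding. Trp53 (ENSMUSG00000059552) is at chr11:69580359-69591873, Cdkn1a (ENSMUSG00000023067) at chr17:29090976-29100727, Mdm2 (ENSMUSG00000020184) at chr10:117688875-117710758 and Ccng1 (ENSMUSG00000020326) at chr11:40748552-40755311. Phlda3 (ENSMUSG00000041801) is at chr1:135766119-135769136, Zmat3 (ENSMUSG00000027663) at chr3:32334792-32366014, Gdf15 (ENSMUSG00000038508) at chr8:70629393-70632456 and Bbc3 (ENSMUSG00000002083) at chr7:16308393-16318205. The library kit does not mark strand, and Cdkn1a is the only member that overlaps another annotated gene. That gene is an antisense model of unconfirmed status (type TEC) with no row in the table, so any reads from it cannot be told apart from Cdkn1a. The processed pseudogene Trp53-ps had 0 counts.

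Libraries held 18897000 to 51875800 summed counts, of which 43.0% to 58.5% were ribosomal RNA. Levels are given as CPM, the usual per-library scaling of counts by the library total, here adjusted with TMM factors, and because the authors divided transcript length out of the counts, levels of different genes can be compared. A library's detection floor, 3 counts, lay between 0.0448 and 0.158 CPM and covers counting error only. Fgg, which liver cells make, read 0 in all 12 WT and sham libraries and summed to 12, 20 and 1 counts in the 3 Fgg groups, too few to check the genotype. Summed CPM of 12 microglia markers was 12461 to 14011 in sham, 3320 to 5385 in WT at 1 d, 6153 to 7902 in Fgg at 1 d, 8016 to 8888 in WT at 7 d and 9144 to 10521 in Fgg at 7 d, and 393 to 1111 in the infiltrating myeloid libraries. Summed CPM of 10 monocyte markers was 6.95 to 53.1 in sham, 87.9 to 149 in WT microglia at 1 d and 32.8 to 102 in Fgg microglia at 1 d, against 2014 to 2361 in infiltrating myeloid cells. Summed CPM of 12 neutrophil markers was 160 to 822 in sham, 175 to 877 in WT and 106 to 439 in Fgg microglia at 1 d, and 2861 to 13555 in infiltrating myeloid cells. The 20 genes that tissue dissociation is known to induce summed to 692 to 2104 in sham, 2365 to 2990 in WT microglia at 1 d and 1690 to 2952 in Fgg microglia at 1 d. In infiltrating myeloid cells these 20 genes summed to 4058 to 6183 in WT and 3552 to 5158 in Fgg. In microglia at 1 d the microglia markers lay below sham in both genotypes, and the monocyte and dissociation sums lay above sham in WT and overlapped it in Fgg, while the neutrophil sums overlapped sham in both. A sum is led by its most abundant genes. The median log2 fold change from sham of the dissociation genes was -0.11 in WT and -0.56 in Fgg. For the monocyte markers it was 0.75 and 0.92, but Ly6c2 read 0.152 to 8.15 CPM in sham and 0.109 to 5.34 CPM in WT at 1 d. The part of these lists in the results that follow was not tested. In bulk RNA of sorted cells, fewer cells that express a gene and less RNA of it per cell cannot be told apart.

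The first question was how the 8 genes stood in microglia 1 d after injury. In WT microglia 3 of the 8 genes were called higher than in sham (Cdkn1a, Ccng1 and Gdf15) and none lower, where called means an absolute log2 fold change over 1 and a Benjamini-Hochberg adjusted p under 0.05 in edgeR's quasi-likelihood test over 23815 genes. Of all genes tested, 8.06% were called higher and 4.21% lower. In Fgg microglia 1 of the 8 (Cdkn1a) was called higher, with 5.49% of all genes called higher and 1.15% lower. Trp53 and Mdm2 did not pass the test in either genotype. All comparisons with sham share the same 3 sham libraries, and the p-values measure the spread between pooled samples.

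**Figure D1:**
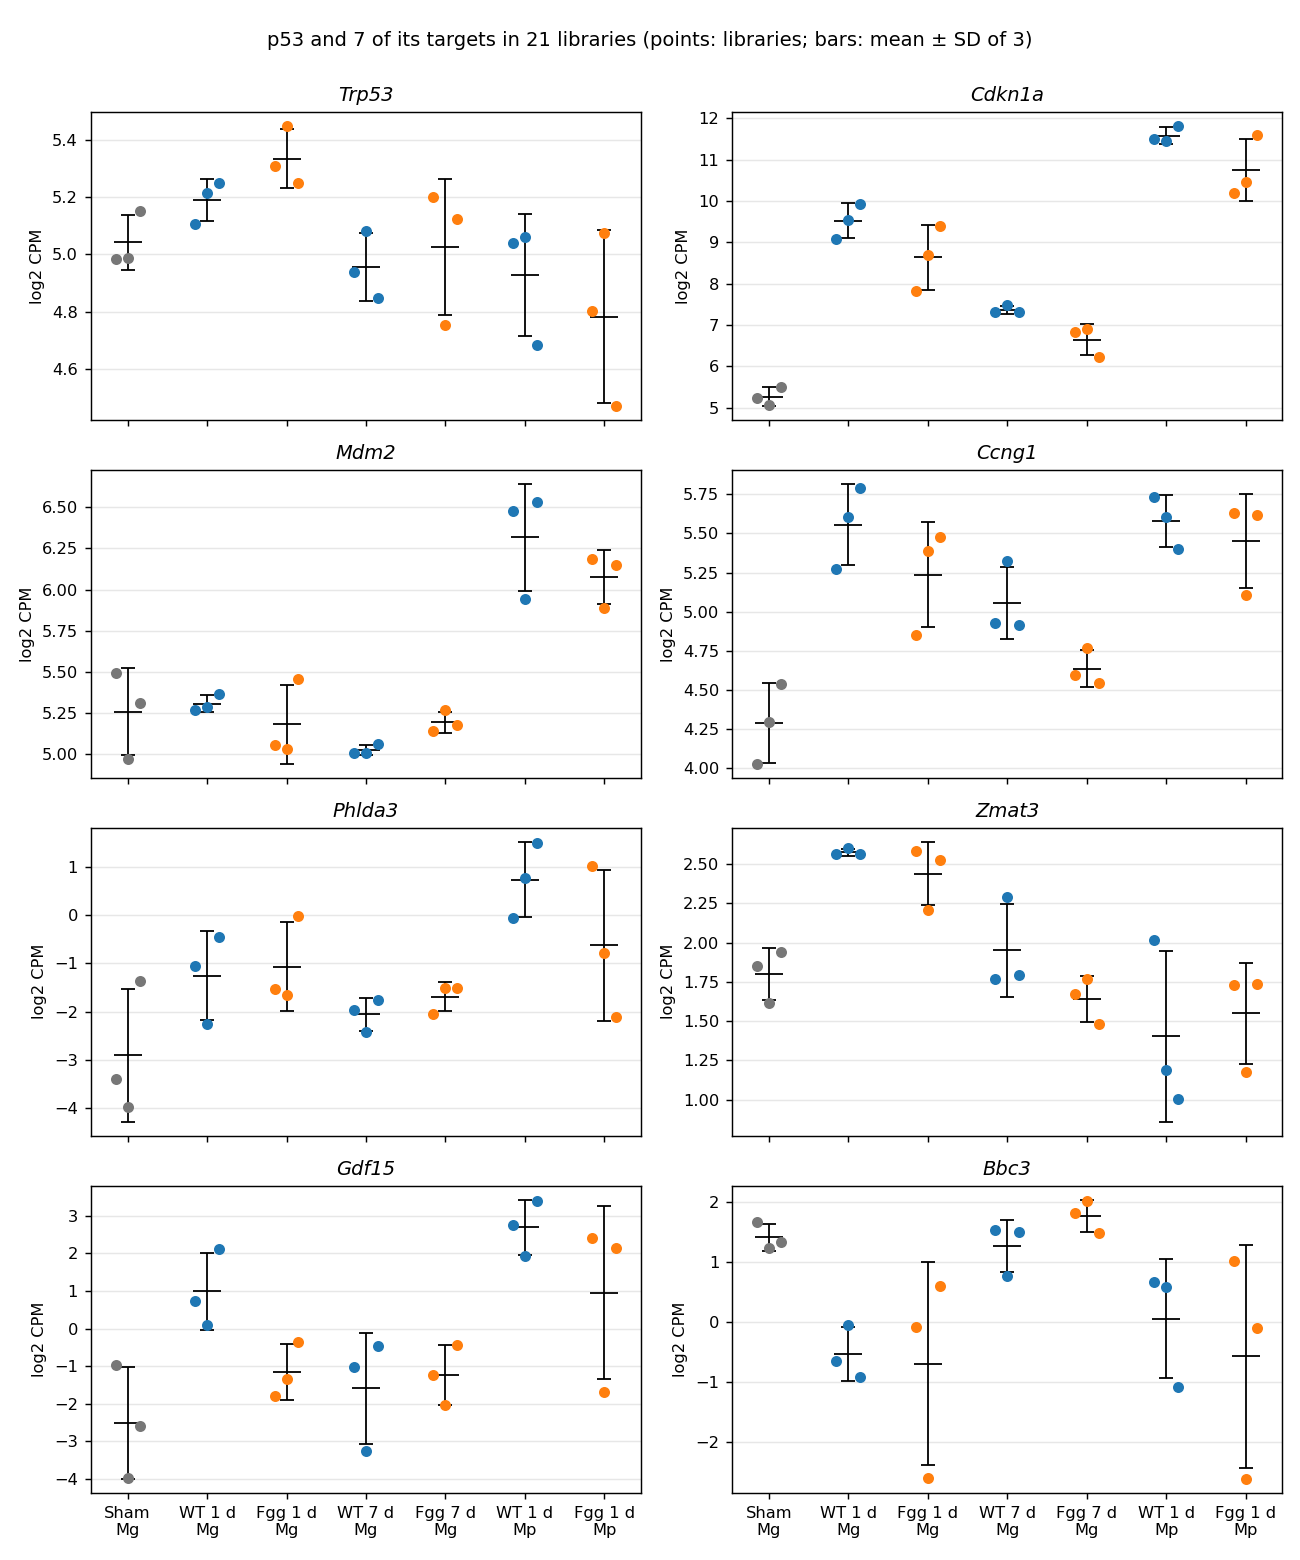
Levels of the 8 genes in each of the 21 libraries, as log2 CPM with a prior count of 2 (y axis, own scale per gene), by group (x axis; Mg microglia, Mp infiltrating myeloid cells; grey sham, blue WT, orange Fgg). Points are libraries and bars the mean ± SD of 3. Cdkn1a is lowest in the 3 sham libraries, higher in every injured library and highest in infiltrating myeloid cells, while Trp53 stays within 22.1 to 43.6 CPM everywhere and Bbc3 is low at 1 d.

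At the top of the pathway, Trp53 read 31.6, 31.7 and 35.5 CPM in the 3 sham libraries, 34.4, 37.1 and 38.0 CPM in WT microglia at 1 d and 39.6, 43.6 and 38.0 CPM in Fgg microglia at 1 d. The WT values overlapped sham and the Fgg values lay just above it. Relative to sham the log2 fold change was 0.15 (SE 0.17, adjusted p = 0.62) in WT and 0.29 (SE 0.17, adjusted p = 0.34) in Fgg. Mdm2 read 44.9, 31.2 and 39.6 CPM in sham, 38.4, 38.9 and 41.1 CPM in WT at 1 d and 33.1, 32.6 and 43.8 CPM in Fgg at 1 d. Its 3 groups overlapped, with an adjusted p of 1 in WT and 0.90 in Fgg. Both genes were thus well above the detection floor in every library.

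Cdkn1a had the largest log2 fold change of the 8 genes in both genotypes. It read 37.8, 33.3 and 45.4 CPM in sham, 542, 747 and 979 CPM in WT microglia at 1 d and 228, 414 and 673 CPM in Fgg microglia at 1 d. Every injured library lay above every sham library, and the lowest Fgg library was above the highest sham library by a wide gap. The mean was 38.8 ± 6.1 CPM (SD, n = 3) in sham, 756 ± 218 CPM in WT and 438 ± 223 CPM in Fgg. On the log2 scale the fold change was 4.28 (SE 0.40, adjusted p = 6.0e-07), a 19.5-fold difference, in WT, and 3.49 (SE 0.39, adjusted p = 8.1e-06), an 11.3-fold difference, in Fgg. By p-value Cdkn1a was gene 64 of 23815 in WT and gene 70 in Fgg. By mean level among 15726 protein-coding genes it went from position 1287 in sham to position 93 in WT and 134 in Fgg microglia at 1 d.

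Ccng1, which encodes cyclin G1, a p53 target that recruits a phosphatase to Mdm2, read 16.2, 19.6 and 23.2 CPM in sham, 38.7, 48.6 and 55.2 CPM in WT at 1 d and 28.8, 41.7 and 44.4 CPM in Fgg at 1 d. Both injured groups lay wholly above sham. Its log2 fold change was 1.27 (SE 0.21, adjusted p = 1.8e-04), or 2.42-fold, in WT. In Fgg it was 0.96 (SE 0.21, adjusted p = 0.0037), just under the bar on the fold, and passed it at 1.13 without Fgg library R1 and at 1.10 without sham library R3.

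Zmat3, an RNA-binding zinc finger protein that regulates splicing, read 3.54, 2.999 and 3.77 CPM in sham, 5.84, 6.01 and 5.86 CPM in WT at 1 d and 5.92, 4.56 and 5.71 CPM in Fgg at 1 d. Each injured library exceeded each sham library, but neither difference passed: the log2 fold change was 0.78 (SE 0.31, adjusted p = 0.096) in WT and 0.65 (SE 0.31, adjusted p = 0.24) in Fgg. Phlda3, which restrains Akt signaling, was near the floor, at 0.0319, 0 and 0.327 CPM (1, 0 and 13 counts) in sham, 0.42, 0.145 and 0.664 CPM in WT at 1 d and 0.283, 0.252 and 0.924 CPM in Fgg at 1 d. Sham library R3 lay within the range of the injured libraries. In WT the log2 fold change was 1.69 (SE 1.13, adjusted p = 0.35), and it rested on that library: without it the value was 4.31 (adjusted p = 0.049), a figure that depends on the prior count because 1 and 0 counts are then left in sham. In Fgg the adjusted p was 0.36.

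Gdf15, a secreted stress cytokine that p53 and the integrated stress response both induce, was low in sham, at 0.446, 0 and 0.101 CPM (14, 0 and 4 counts). It read 1.603, 1.01 and 4.29 CPM (42, 28 and 110 counts) in WT microglia at 1 d and 0.224, 0.327 and 0.723 CPM in Fgg microglia at 1 d. All WT libraries lay above sham, whereas the Fgg libraries overlapped it. In WT the log2 fold change was 3.62 (SE 1.13, adjusted p = 0.032). That call was lost without sham library R2 (3.08, adjusted p = 0.11), without sham library R3 (3.31, adjusted p = 0.11), without WT library R3 (2.84, adjusted p = 0.14) and with only the compared groups in the fit (adjusted p = 0.068). In Fgg the value was 1.16 (SE 1.09, adjusted p = 0.61).

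Bbc3 encodes Puma, a BH3-only protein that starts mitochondrial apoptosis, and had the opposite sign. It read 3.09, 2.28 and 2.44 CPM in sham, 0.573, 0.905 and 0.468 CPM in WT at 1 d and 0.880, 0.101 and 1.45 CPM in Fgg at 1 d. Every sham library was above every injured library. For Bbc3 the log2 fold change was -2.00 (SE 0.84, adjusted p = 0.12) in WT and -1.69 (SE 0.82, adjusted p = 0.25) in Fgg, so neither passed the test. In WT 11 of 14 alternatives, with every fit that left out a library among them, did not pass either. The rest passed, among them DESeq2 (adjusted p = 0.034), and the lowest adjusted p was 0.028 by edgeR. Across the 8 genes, 5 of 8 in WT and 5 of 8 in Fgg had an injured group that did not overlap sham, beside 33.8% and 29% of all genes tested.

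**Figure D2:**
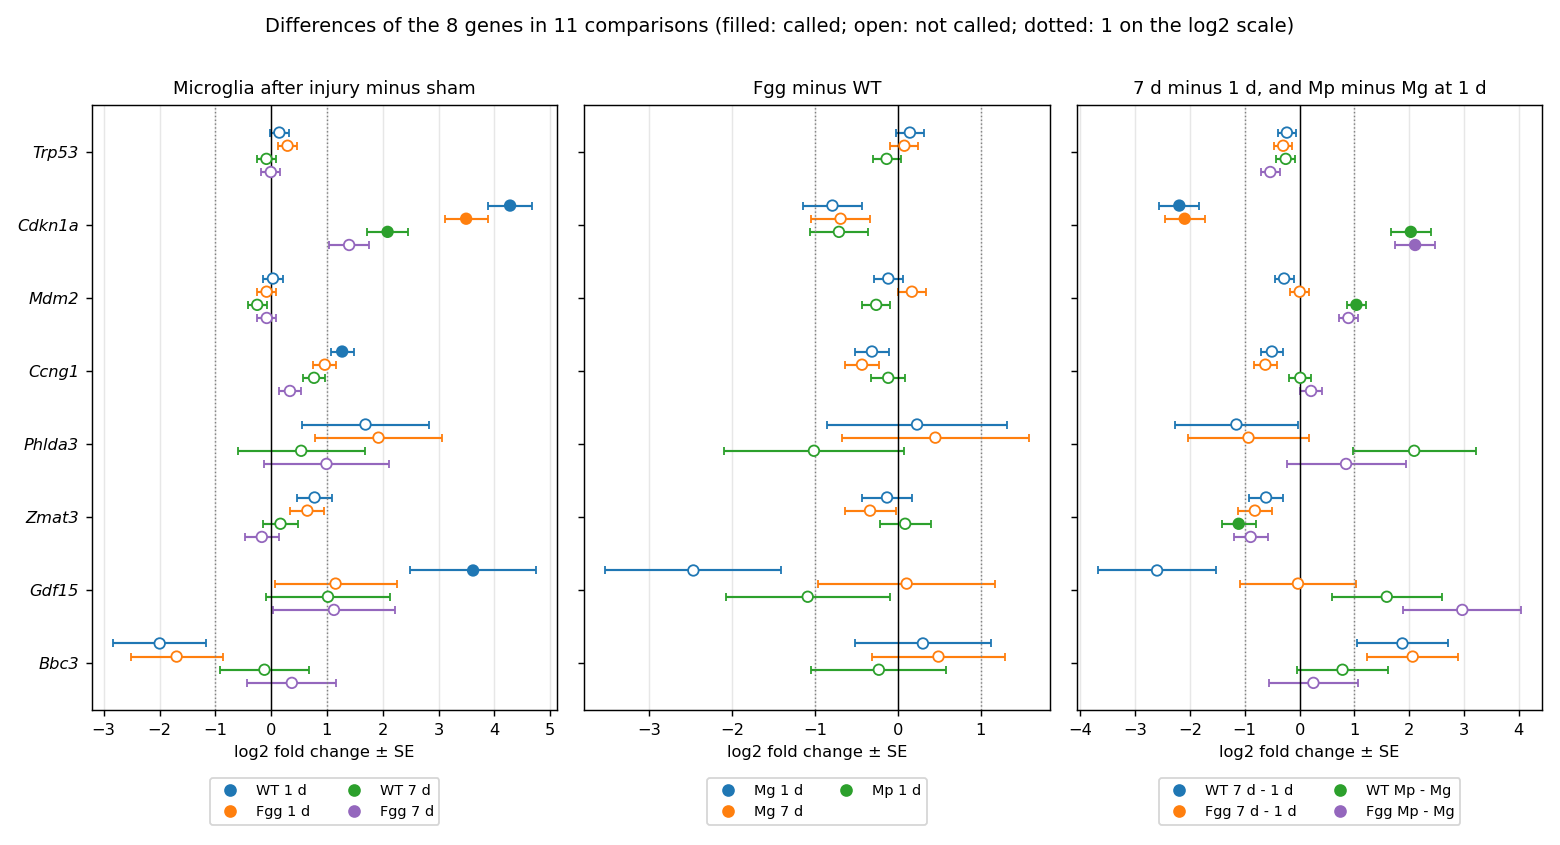
Log2 fold change ± SE (x axis) of the 8 genes (y axis) in 11 comparisons: microglia after injury minus sham, Fgg minus WT, and 7 d minus 1 d or infiltrating myeloid cells (Mp) minus microglia (Mg). Filled points were called and open points not. Cdkn1a has filled points in 7 comparisons, and no gene has one between genotypes.

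At 7 d Cdkn1a and Ccng1 were the 2 of the 8 genes whose groups did not overlap sham, in either genotype, beside 20.1% of all genes in WT and 15.6% in Fgg. In WT microglia Cdkn1a alone was called higher than in sham (1.93% of all genes were called higher and 0.0924% lower), and in Fgg microglia 0 of the 8 genes were called by edgeR (0.63% of all genes higher, 0.0336% lower), with 1 at an unadjusted p under 0.05 and 1, Cdkn1a, called by DESeq2. Cdkn1a read 159, 178 and 158 CPM in WT and 113, 119 and 74.9 CPM in Fgg at 7 d. Every one of these libraries was still above the highest sham library, at 45.4 CPM. From sham to 7 d the log2 fold change was 2.09 (SE 0.37, adjusted p = 0.0026) in WT. In Fgg it was 1.398 (SE 0.36, adjusted p = 0.079), and the adjusted p was 0.0041 with DESeq2 and 0.043 with only the compared groups in the fit.

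Ccng1 read 30.4, 40.0 and 30.0 CPM in WT and 24.1, 27.1 and 23.2 CPM in Fgg at 7 d. The WT group was above sham, and the lowest Fgg library stood level with the highest sham library without crossing it. Its log2 fold change was 0.77 (SE 0.21, adjusted p = 0.051) in WT and 0.34 (SE 0.20, adjusted p = 0.73) in Fgg. Zmat3 read 3.34, 4.84 and 3.40 CPM in WT and 3.12, 3.34 and 2.72 CPM in Fgg at 7 d. Gdf15 read 0.430, 0.0406 and 0.657 CPM in WT and 0.358, 0.179 and 0.681 CPM in Fgg, and Phlda3 0.122 to 0.287 CPM over the 6 libraries. These values overlapped those of sham. Bbc3 read 2.82, 1.63 and 2.74 CPM in WT and 3.43, 3.95 and 2.72 CPM in Fgg at 7 d, Trp53 26.9 to 36.7 CPM and Mdm2 32.0 to 38.4 CPM over the 6 libraries. All 3 genes overlapped sham in both genotypes.

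Taken directly between times, Cdkn1a was called lower at 7 d than at 1 d in both genotypes and was the only one of the 8 genes called, by edgeR, in either. In WT, 2.67% of all genes were called higher and 4.39% lower at 7 d, and in Fgg 0.663% higher and 2.88% lower. From 1 d to 7 d the log2 fold change of Cdkn1a was -2.19 (SE 0.37, adjusted p = 4.9e-04) in WT and -2.10 (SE 0.37, adjusted p = 0.0014) in Fgg, and no library at 7 d reached the lowest library at 1 d. Ccng1 had values of -0.50 (adjusted p = 0.14) in WT and -0.62 (adjusted p = 0.088) in Fgg, and Zmat3 of -0.61 (adjusted p = 0.25) and -0.82 (adjusted p = 0.16). Gdf15 in WT had a value of -2.60 (SE 1.08, adjusted p = 0.15). Bbc3 had the opposite sign, at 1.88 (adjusted p = 0.19) in WT and 2.06 (adjusted p = 0.20; DESeq2 0.048) in Fgg, and did not overlap between times in either genotype.

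The study's main question was what the loss of fibrin binding to CD11b/CD18 does to the myeloid response, and for these 8 genes no difference between genotypes passed the test. The threshold here was an adjusted p under 0.1 with an absolute log2 fold change over 1, by edgeR, and 0 of the 8 genes were called in microglia at 1 d, in microglia at 7 d or in infiltrating myeloid cells, with 2, 1 and 0 genes at an unadjusted p under 0.05 and 0 called by DESeq2. Of all genes, 0.0546% (13 genes), 0.0378% (9 genes) and 0.453% (108 genes) were called. Cdkn1a was lower on average in Fgg in all 3 comparisons. In microglia at 1 d the log2 fold change, Fgg minus WT, was -0.79 (SE 0.35, 95% interval -1.53 to -0.05, unadjusted p = 0.038 and adjusted p = 0.89 by edgeR), and the groups overlapped. Without WT or Fgg libraries in turn it ranged from -1.24 to -0.48.

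In microglia at 7 d the Fgg libraries of Cdkn1a (74.9 to 119 CPM) all lay below the WT libraries (158 to 178 CPM). Their log2 fold change was -0.69 (SE 0.35, 95% interval -1.43 to 0.05, adjusted p = 1 by edgeR). Ccng1 also did not overlap between genotypes at 7 d, with 23.2 to 27.1 CPM in Fgg and 30.0 to 40.0 CPM in WT, and had a value of -0.43 (SE 0.20, adjusted p = 1). In all, 4 of the 8 genes had groups apart at 7 d, 1 at 1 d and 0 in infiltrating myeloid cells, beside 11.1%, 8.72% and 8.02% of all genes, and none of the 8 was called. In infiltrating myeloid cells Cdkn1a read 2882, 2794 and 3589 CPM in WT and 1178, 1399 and 3089.9 CPM in Fgg. Fgg library R3 lay within the WT range and the other 2 below it. The log2 fold change was -0.71 (SE 0.35, 95% interval -1.45 to 0.03, adjusted p = 0.45 by edgeR), and it was -1.26 (adjusted p = 0.080), past the threshold, without Fgg library R3.

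Gdf15 was the member with groups apart between genotypes in microglia at 1 d, at 0.224 to 0.723 CPM in Fgg and 1.01 to 4.29 CPM in WT. The log2 fold change was -2.46 (SE 1.06, unadjusted p = 0.031, adjusted p = 0.89 by edgeR). Whether the genotype difference itself depended on time or cell type was tested as an interaction, with a threshold of adjusted p under 0.1 and no bar on the fold. By edgeR 0 of the 8 genes were called, 0 had an unadjusted p under 0.05 and 0 were called by DESeq2 in either test, beside 0% of all genes (0 genes) for genotype by time and 0.0462% (11 genes) for genotype by cell type. For Cdkn1a the genotype difference at 7 d minus that at 1 d was 0.10 (SE 0.50, 95% interval -0.94 to 1.14, adjusted p = 1), and that in infiltrating myeloid cells minus that in microglia was 0.08 (SE 0.50, 95% interval -0.96 to 1.11, adjusted p = 1). Both intervals thus reach about 1 on the log2 scale in either direction.

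Infiltrating myeloid cells at 1 d had the highest Cdkn1a of all groups. Against microglia of the same genotype and time, Cdkn1a and Mdm2 were called higher and Zmat3 lower in WT, and Cdkn1a alone was called, higher, in Fgg. In WT 5.61% of all genes were called higher and 6.31% lower, and in Fgg 6.96% higher and 9.7% lower. With this scaling the median log2 fold change of all genes in the Fgg comparison was -0.131, while it was 0 in WT. Both comparisons set different cell types side by side, so they describe how the levels differ between the sorted populations.

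For Cdkn1a the log2 fold change was 2.03 (SE 0.36, adjusted p = 5.4e-04) in WT and 2.11 (SE 0.36, adjusted p = 3.2e-04) in Fgg, and no microglial library reached the lowest infiltrating myeloid library of its genotype. At a mean of 3088 ± 436 CPM (SD, n = 3), it was the protein-coding gene with the 14th highest mean level in WT infiltrating myeloid cells, and in Fgg, at 1889 ± 1046 CPM, it held position 37. Mean Cdkn1a in WT microglia at 1 d was 24.5% of that in WT infiltrating myeloid cells. The summed monocyte markers of those microglia were 5.67%, the neutrophil markers 6.28% and the border-associated macrophage markers 10.5% of the level in the infiltrating myeloid cells. In Fgg the figures were 23.2% for Cdkn1a and 2.68%, 4.73% and 6.88% for the 3 marker lists. Sham microglia also had counts of these markers, and whether infiltrating cells in the microglia gate add to its Cdkn1a was not tested.

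Mdm2 read 88.9, 61.5 and 92.5 CPM in WT and 72.8, 59.1 and 71.0 CPM in Fgg infiltrating myeloid cells, all above the 31.2 to 44.9 CPM of the 15 microglial libraries. Its log2 fold change was 1.04 (SE 0.17, adjusted p = 2.9e-04) in WT, and fell under the bar without WT infiltrating myeloid library R1 (0.97) or R3 (0.93). In Fgg it was 0.89 (SE 0.17, adjusted p = 9.5e-04), under the bar, and at least 1.02 with DESeq2, with DESeq2's size factors, with edgeR's own count filter, with only the compared groups in the fit or without Fgg microglia library R3. Ccng1, at 42.1 to 53.1 CPM in WT and 34.3 to 49.5 CPM in Fgg infiltrating myeloid cells, overlapped the microglia of 1 d in both genotypes.

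Zmat3 read 3.99, 2.21 and 1.94 CPM in WT and 3.25, 2.20 and 3.28 CPM in Fgg infiltrating myeloid cells, below all microglial libraries of 1 d. The log2 fold change was -1.11 (SE 0.31, adjusted p = 0.017) in WT and -0.89 (adjusted p = 0.044) in Fgg, under the bar. The WT call was lost without WT microglia library R2 or R3, without WT infiltrating myeloid library R2 or R3, and with only the compared groups in the fit, with adjusted p between 0.051 and 0.088. Trp53 read 32.8, 33.3 and 25.6 CPM in WT and 27.8, 33.7 and 22.1 CPM in Fgg infiltrating myeloid cells. Its log2 fold change was -0.25 (adjusted p = 0.34) in WT and -0.53 (adjusted p = 0.028), under the bar, in Fgg. Trp53 was thus not higher in the population where Cdkn1a and Mdm2 were.

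The low-level genes varied widely among infiltrating myeloid libraries. Gdf15 read 6.68, 3.74 and 10.4 CPM in WT and 5.29, 0.247 and 4.31 CPM in Fgg. Fgg library R2 was within the microglial range. Against microglia the log2 fold change was 1.59 (adjusted p = 0.32) in WT and 2.97 (SE 1.08, adjusted p = 0.056; DESeq2 0.0089) in Fgg, and 3.53 (adjusted p = 0.016) in Fgg without library R2. Phlda3 read 0.895, 1.63 and 2.75 CPM in WT, above all WT microglial libraries, with a log2 fold change of 2.09 (SE 1.12, adjusted p = 0.24), and 1.94, 0.518 and 0.168 CPM in Fgg. Bbc3 read 1.52, 1.42 and 0.406 CPM in WT and 1.94, 0.0987 and 0.868 CPM in Fgg, overlapping the microglia of 1 d.

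Over all 7 groups the order of Cdkn1a was sham, Fgg 7 d, WT 7 d, Fgg 1 d and WT 1 d microglia, then Fgg and WT infiltrating myeloid cells. Neighbours in this order overlapped only between genotypes at 1 d, once in microglia and once in infiltrating myeloid cells. The group means ran from 38.8 to 3088 CPM. Mdm2 had a single break, between all microglial groups and infiltrating myeloid cells, and Trp53 none. Zmat3 had no break between neighbours, and Bbc3 had a single one, between WT infiltrating myeloid cells and WT microglia at 7 d.

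Beyond these 8 genes, 65 other genes of the p53 pathway were listed by role, of which 63 could be tested. In WT microglia at 1 d 12 of the 63 were called, 6 higher and 6 lower than in sham, with a median log2 fold change of 0.23 beside 0 over all genes, where 8.06% of all genes were higher and 4.21% lower. In Fgg microglia at 1 d 4 were called higher and 5 lower, with a median of 0.18, where all genes had 5.49% higher and 1.15% lower. At 7 d 1 was higher and 1 lower in WT (Pmaip1 and Prkab1; 1 call in all without sham library R1 or with only the compared groups) and 0 were called in Fgg by edgeR (8 had an unadjusted p under 0.05, and DESeq2 called 1). The list thus held calls of both signs at 1 d.

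**Figure D3:**
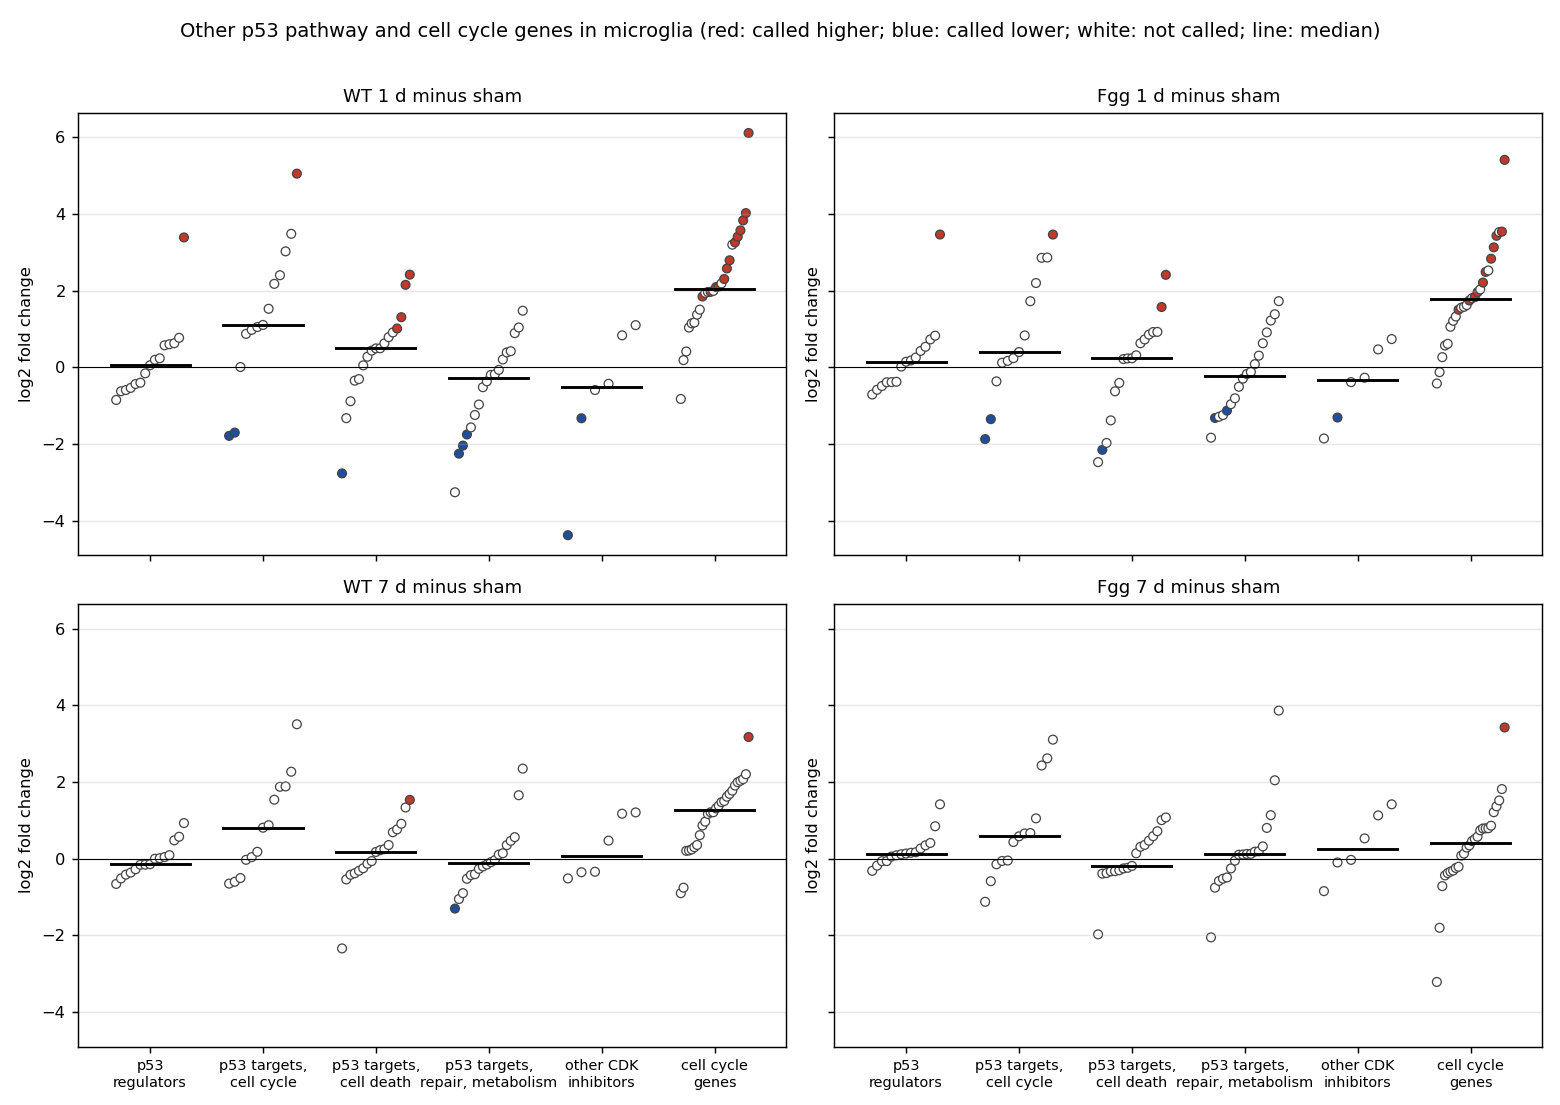
Log2 fold change from sham (y axis) of each tested gene of 6 lists (x axis) in microglia of WT and Fgg mice at 1 d and 7 d. Each point is a gene, sorted by value within its list; red points were called higher, blue points lower and white points not called, and lines are medians. At 1 d the cell cycle and cell death targets of p53 hold calls of both signs, the repair and metabolism targets only lower calls and the cell cycle genes only higher calls; the points farthest from 0 include genes with few counts in sham or after injury.

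Among 15 tested regulators of p53, only Chek1, a kinase of the DNA replication checkpoint, was called at 1 d. It rose from 0.719 CPM in sham to 7.49 CPM in WT (log2 fold change 3.39, SE 0.66, adjusted p = 9.9e-04) and 7.90 CPM in Fgg (3.46, SE 0.66, adjusted p = 0.0014). In WT 3 further regulators had an adjusted p under 0.05 with a fold under the bar: the kinase Hipk2 (log2 fold change 0.77, adjusted p = 0.0053), the acetyltransferase Ep300 (-0.63, adjusted p = 0.019) and Mdm4, the partner of Mdm2 that holds p53 inactive (-0.85, adjusted p = 0.030). The kinases Atm and Atr had values of 0.60 (adjusted p = 0.23) and 0.05 (adjusted p = 0.99) in WT at 1 d.

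Of 13 further cell cycle and growth targets, Plk2, a polo-like kinase, was called higher at 1 d and Sesn1 and Btg2 lower in both genotypes. Plk2 went from 0.799 CPM in sham to 26.8 CPM in WT (log2 fold change 5.05, SE 0.61, adjusted p = 8.7e-06) and 8.92 CPM in Fgg (3.46, SE 0.58, adjusted p = 4.5e-04). Sesn1, a stress-induced inhibitor of mTORC1, went from 59.9 to 17.3 CPM in WT (-1.79, SE 0.34, adjusted p = 7.5e-04) and 23.4 CPM in Fgg (-1.35, adjusted p = 0.011). Btg2, an antiproliferative gene, is also an immediate early gene that tissue dissociation induces, and read 31.4 to 125 CPM in sham, 14.1 to 24.2 CPM in WT and 4.68 to 26.5 CPM in Fgg at 1 d (-1.70, adjusted p = 0.032, and -1.87, adjusted p = 0.029).

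Of 17 targets with a role in cell death, 4 rose and 1 fell in WT at 1 d. Rps27l went from 34.3 to 152 CPM (log2 fold change 2.15, SE 0.23, adjusted p = 3.0e-06), Siva1 from 3.18 to 17.003 CPM (2.42, SE 0.32, adjusted p = 2.5e-05), Pmaip1, which encodes the BH3-only protein Noxa, from 1.55 to 3.85 CPM (1.31, adjusted p = 0.0051) and Bax, a pore-forming effector of apoptosis, from 16.4 to 33.0 CPM (1.01, adjusted p = 0.011). Trp53inp1, a p53 cofactor and autophagy gene, went from 8.62 to 1.26 CPM (-2.77, SE 0.46, adjusted p = 2.3e-04). In Fgg, Rps27l (1.57), Siva1 (2.41) and Trp53inp1 (-2.15) were called with the same signs.

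Of 18 targets in DNA repair and metabolism, 3 fell in WT at 1 d and none rose. Prkab1, a subunit of AMP-activated kinase, went from 43.0 to 12.8 CPM (log2 fold change -1.75, SE 0.19, adjusted p = 2.5e-06), the tetraspanin Cd82 from 22.1 to 5.35 CPM (-2.04, SE 0.25, adjusted p = 7.8e-06) and Ephx1, an epoxide hydrolase, from 3.65 to 0.763 CPM (-2.25, SE 0.69, adjusted p = 0.029). In Fgg Prkab1 (-1.32) and Cd82 (-1.13) were called lower. Prkab1 was still called lower in WT at 7 d, at 17.5 CPM (-1.30, adjusted p = 3.9e-04), and Pmaip1 higher, at 4.51 CPM (1.53, adjusted p = 0.0072).

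p21 acts beside other inhibitors of cyclin-dependent kinases, and none of the 6 others listed was called higher in microglia after injury. Cdkn1b, which encodes p27 and marks resting cells, fell from 12.9 CPM in sham to 5.12 CPM in WT (log2 fold change -1.33, SE 0.24, adjusted p = 5.9e-04) and 5.18 CPM in Fgg at 1 d (-1.31, adjusted p = 0.0011). Cdkn1c, which encodes p57, was called lower in WT at 1 d, at 0.829 to 2.21 CPM in sham and 0 to 0.153 CPM in WT, and this call was lost without WT library R2 or R3.

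A further list held 26 cell cycle genes that p53 lowers through p21 and the repressor complex DREAM. Of these, 13 were called higher and 0 lower in WT microglia at 1 d (median log2 fold change 2.04), where 8.06% of all genes were higher, and 11 higher and 0 lower in Fgg (median 1.77), where 5.49% were. The other 13 and 15 did not pass the test. The Fgg count was 5 without Fgg library R3, 7 without Fgg library R1, and 6 without sham library R1 or R2. Mcm5, a subunit of the replicative helicase, went from 0.931 to 11.2 CPM in WT (3.57, SE 0.47, adjusted p = 2.2e-05) and 10.2 CPM in Fgg (3.43, adjusted p = 6.9e-05). Mcm3 (1.97 in WT and 1.74 in Fgg) and Tyms, thymidylate synthase (1.85 and 1.501), moved alike. E2f1, a driver of S phase entry, had 0.0319 to 0.0759 CPM in sham, at or under the floor, and 3.24 to 4.67 CPM in WT and 1.76 to 3.13 CPM in Fgg at 1 d. At 7 d only E2f1 was called, in each genotype; with only the compared groups in the fit 0 genes were, and in WT 3 were with DESeq2 or without sham library R3.

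Gdf15 is shared with the integrated stress response, a program driven by the factors ATF4 and CHOP. Of 15 genes of that response, 6 were called higher and 1 lower in WT microglia at 1 d, among them Slc7a11, the cystine transporter (log2 fold change 3.67, SE 0.51, adjusted p = 3.2e-05), Psat1 (2.40) and Asns, asparagine synthetase (4.59), both enzymes of amino acid synthesis, and Ddit4 lower (-2.35). The count was 4 in all without sham library R3 or WT library R3. In Fgg 1 was called higher (Psat1, 2.06) and 1 lower (Ddit4, -2.75), and the number ran from 1 to 4 over the libraries left out: 1 without sham library R1 or Fgg library R2 and 4 without sham library R3. Of all genes, 8.06% were called higher and 4.21% lower in WT at 1 d, and 5.49% higher and 1.15% lower in Fgg. Between genotypes in microglia at 1 d 0 genes of the list were called by edgeR and 4 had an unadjusted p under 0.05; 2 were called by DESeq2, and 1 without WT library R1 or R2, with DESeq2's size factors, with another count filter, with the replicate block or without ribosomal RNA counts. In infiltrating myeloid cells 0 were called by edgeR, 1 had an unadjusted p under 0.05, and 1 was called by DESeq2 or without Fgg library R3.

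None of the 63 other listed p53 genes was called between genotypes by edgeR, in microglia at 1 d or 7 d or in infiltrating myeloid cells, with 5, 4 and 5 genes at an unadjusted p under 0.05 and 0, 0 and 1 called by DESeq2. In infiltrating myeloid cells the count became 2 without Fgg library R3 and 1 without Fgg library R2, and in microglia at 1 d 1 without WT library R1. Neither interaction test called any of them by edgeR, with 2 genes each at an unadjusted p under 0.05, and leaving out Fgg infiltrating myeloid library R3 gave 1 call for genotype by cell type. Between times, 5 were called higher and 5 lower at 7 d than at 1 d in WT (6 in all without WT 1 d library R2), and 3 higher and 4 lower in Fgg (4 in all without Fgg 7 d library R1 or R3). The shares of all genes were 2.67% higher and 4.39% lower in WT, and 0.663% higher and 2.88% lower in Fgg.

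In infiltrating myeloid cells against microglia at 1 d 13 of the 63 listed p53 genes were called higher and 5 lower in WT, beside 5.61% and 6.31% of all genes, and 17 higher and 7 lower in Fgg, beside 6.96% and 9.7%. Among the targets that were higher in both genotypes were the antiproliferative genes Btg1 (log2 fold change 2.67 in WT and 2.39 in Fgg) and Tob1 (2.07 and 2.68), the kinase Plk3 (1.69 and 1.52), Pmaip1 (2.45 and 2.73), Tnfrsf23, a decoy death receptor (1.98 and 2.18), and Dram1, a lysosomal autophagy protein (4.41 and 4.46). Regulators were called only lower: Prkdc (-1.60), Chek1 (-3.08), Atr (-1.14) and Atm in WT, and Atr (-1.57), Trp53bp1 (-1.63), Chek1 (-2.56) and Mdm4 in Fgg. Of the 26 cell cycle genes 9 were lower in WT and 7 in Fgg and none higher, and the rest did not pass. The WT count was 4 without WT microglia library R1 and 5 without WT microglia library R2 or WT infiltrating myeloid library R3, and the Fgg count 4 without Fgg microglia library R1 or R3.

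Last, the genes whose levels followed Cdkn1a most closely were sought among 9956 protein-coding genes with a mean log2 CPM of at least 0, by the root mean square difference in centred log2 CPM over the 21 libraries. The 5 nearest were Noct (0.50), a rhythmically expressed enzyme of the deadenylase family, Capg (0.52), an actin-capping protein of macrophages, Cstb (0.55), an inhibitor of cathepsins, Bcl2a1d (0.56), a member of the Bcl2a1 family of survival genes, and Cd300ld (0.57), a myeloid surface receptor. Bcl2a1d and Cd300ld have close paralogs, between which reads can be split. Their group means rose from sham to WT microglia at 1 d and again to WT infiltrating myeloid cells: Noct from 0.379 to 4.69 and 14.5 CPM, Capg from 6.26 to 69.6 and 280 CPM, and Cstb from 43.1 to 342 and 2243 CPM. On the 7 group means the nearest genes were P2ry2, Capg, Cd36, Srxn1 and Dok2, so only Capg was named both ways. None of the other genes among the 8 was as near. The distance was 1.30 for Gdf15, 1.47 for Phlda3, 1.70 for Ccng1, 1.78 for Mdm2, 2.19 for Trp53, 2.23 for Zmat3 and 3.07 for Bbc3. The bar on the mean level was not applied to the 8 genes. Gdf15 and Phlda3 had few counts in many libraries, which adds counting error to their distances. The distance is not scaled for range, so a gene with a smaller range than Cdkn1a lies far from it even in the same order. These distances describe libraries that share groups, and they carry no test.

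**Figure D4:**
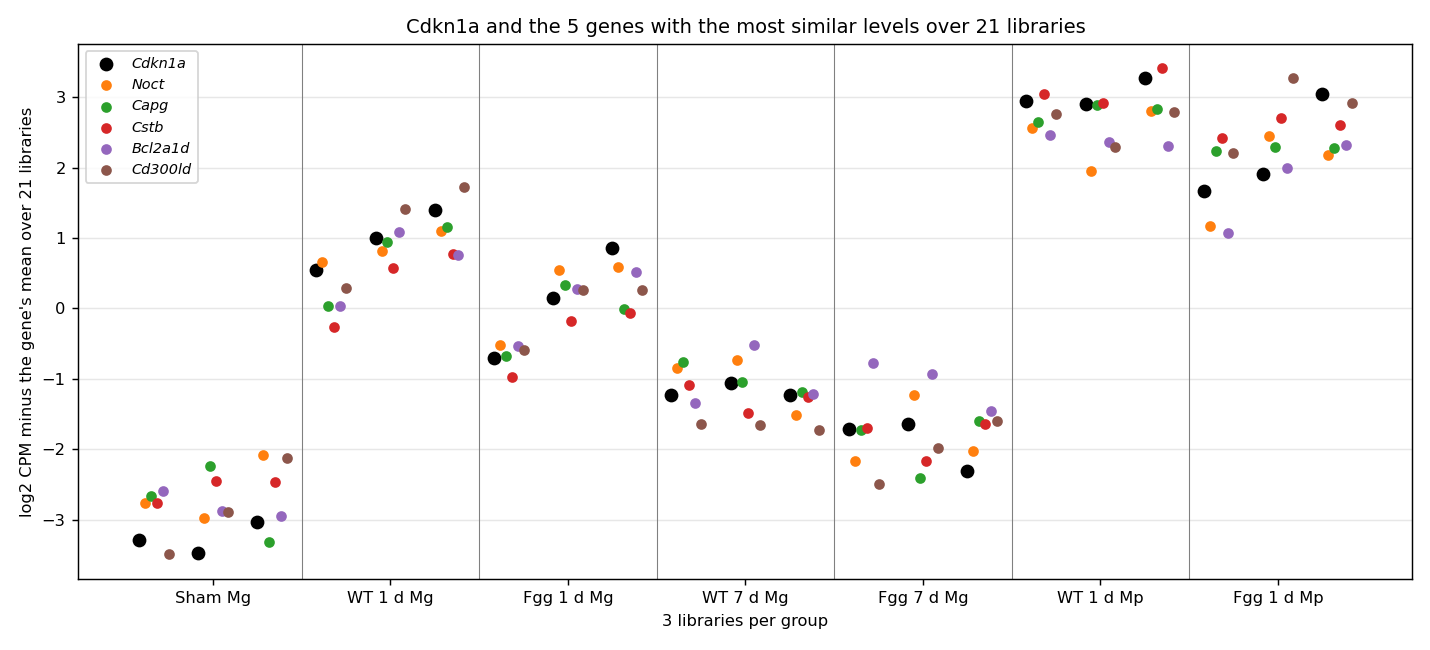
Centred log2 CPM (y axis) of Cdkn1a (black) and the 5 genes with the smallest root mean square difference from it, in the 21 libraries by group (x axis). The points of the 5 genes rise with those of Cdkn1a, from about 3 below their mean in sham to about 3 above it in WT infiltrating myeloid cells. Most lie above Cdkn1a in sham, and all but those of Cstb lie below it in WT infiltrating myeloid cells.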

How the data were processed

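The authors sorted the cells, made Ovation V2 libraries, and estimated transcript abundance with salmon (nf-core/rnaseq, GRCm38); the deposited values are estimated counts with transcript length divided out and no scaling between libraries (56.8% of rows hold a value that is not whole). Counts were rounded here. Of 45706 gene IDs, 45143 matched GENCODE M21. Genes with at least 5 counts in all (23815) entered one edgeR 4.0.16 quasi-likelihood fit of the 21 libraries (R 4.3.3, TMM, Benjamini-Hochberg). A difference was called at an absolute log2 fold change over 1 and adjusted p under 0.05 (0.1 between genotypes, with no bar on the fold for interactions). Alternatives were DESeq2 1.42.0, its size factors, other filters, fits of fewer groups, a replicate block, another bar and each library left out. Over all groups, same-numbered libraries had r over 0.1 in 8 of 63 pairs (highest 0.41), and numbers were not used as pairs. Most of these pairs are of different mice. Microglia and infiltrating myeloid libraries of the same genotype at 1 d may share brains, and the pooled check cannot decide whether those are paired. Tests between cell types, and the interaction with cell type, treat them as independent. The script was tested on simulated data. The 8 genes and all lists were chosen with earlier results of these data known. Named beyond the 8 were called genes of each list, at most 4 with the smallest p in each direction against sham and 3 elsewhere, and the 5 genes nearest to Cdkn1a; Hipk2, Ep300, Mdm4, Atm and Atr (1 d) were added after their values were seen.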

Additional observations from a re-analysis of the deposited data

Results flagged for a closer look

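Cdkn1a moved in the same direction in both genotypes between times, and every library at 7 d was below every library at 1 d of its genotype: the log2 fold change from 1 d to 7 d was -2.19 in WT and -2.10 in Fgg microglia by edgeR. These values stand out because the injury effect on Cdkn1a differed between the time points by a test of the difference itself, with the same sham libraries on both sides.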

How the results depend on the processing

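The tally of log2 fold changes covers only those of the 8 genes whose value the text gives, with interactions for Cdkn1a alone. Over the alternatives, 577 of these kept their direction and side of the threshold, 21 newly passed it, 11 no longer did and 6 changed sign. Values left out, some near 0 such as Mdm2 in Fgg at 7 d against 1 d (0.0025), may change sign outside this tally. The 6 were the interactions of Cdkn1a, which ran over the libraries left out from -0.21 to 0.55 for genotype by time and from -0.47 to 0.53 for genotype by cell type. The number of the 8 genes called moved by over 1.5 times as follows. For Fgg 1 d against sham (1) it was 2 with no bar on the fold and 1 to 2 over the libraries left out. For Fgg 7 d against sham (0) it was 1 with DESeq2, with the replicate block and with only the compared groups. Between genotypes in infiltrating myeloid cells (0) it was 0 to 1 over the libraries left out. For 7 d against 1 d (1) it was 2 with the replicate block in WT (Gdf15, adjusted p = 0.044 by edgeR) and 2 with DESeq2 in Fgg; the block changed no other count of the 8 genes past that margin. For infiltrating myeloid cells against microglia it was, in WT (3), 1 with a bar of 1.5 and 1 to 3 over the libraries left out, and in Fgg (1), 3 with DESeq2, with its size factors and with filterByExpr, 2 with only the compared groups, 4 with no bar and 1 to 2 over the libraries left out. For the other p53 genes it was 1 at WT 7 d (2) with only the compared groups or a bar of 1.5 and 1 to 2 over the libraries left out, 1 at Fgg 7 d (0) with DESeq2, and 1 between genotypes in infiltrating myeloid cells (0) with DESeq2. Over the libraries left out it was 0 to 1 between genotypes in microglia at 1 d, 0 to 2 in infiltrating myeloid cells, 6 to 10 for WT 7 d against 1 d (10), 4 to 7 for Fgg (7; 4 with a bar of 1.5), and 0 to 1 for genotype by cell type. Alternatives for the 3 lists of CDK inhibitors, stress response and cell cycle genes were chosen after seeing the data; 504 of their counts stayed within that margin and 67 did not. Fits of microglia alone give no value for infiltrating myeloid cells. Scaling with DESeq2's factors moved the median of protein-coding genes in the Fgg cell type comparison from -0.13 to -0.01. The causes were not tested. With 3 pooled libraries a group, the SE of Phlda3 and Gdf15 was over 1 on the log2 scale against sham at 1 d.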

Other observations

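Trp53cor1, the noncoding gene of lincRNA-p21, was looked at because it lies near Cdkn1a and is known as a p53-induced transcript, and was chosen after values were seen. It read 5.23, 7.29 and 5.76 CPM in sham, 1.11, 0.0724 and 0.234 CPM in WT microglia at 1 d and 2.15, 0.428 and 0.482 CPM in Fgg microglia at 1 d. Every sham library was above every injured library of 1 d, while Cdkn1a had the opposite order. At 7 d it read 3.15, 2.64 and 2.59 CPM in WT and 3.97, 4.41 and 3.08 CPM in Fgg, between the values of 1 d and sham. The log2 fold change from sham at 1 d was -3.68 (SE 0.94, adjusted p = 0.0090 by edgeR) in WT and -2.55 (adjusted p = 0.079; DESeq2 0.011) in Fgg. In infiltrating myeloid cells it read 0.460, 0 and 0.0902 CPM in WT and had 0, 0 and 1 counts in Fgg.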
